A study of Mus musculus with 12 samples.

Results

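A set of 9 genes of epidermal barrier lipid metabolism were followed in organoids of mouse endometrial epithelium, the cell layer that lines the uterus, kept as cultures in a gel. The 9 genes, Sptssb, Cers3, Elovl4, Elovl7, Ugcg, Abca12, Alox12b, Aloxe3 and Alox12e, were picked by symbol for their roles, and all 9 were among the 26264 genes of the count files. Bulk RNA sequencing covered 12 libraries in 4 groups of 3: wild-type (WT) organoids without estrogen, WT organoids with estrogen, Esr1 knockout (KO) organoids without estrogen and KO organoids with estrogen. Esr1 encodes estrogen receptor alpha. Each library was named by its group and by a replicate number from 1 to 3, and values for single libraries are given below in that order. All groups were passaged organoids from digested mouse uteri. The labels state neither how Esr1 was deleted nor the dose or kind of estrogen, nor the age of the mice behind these libraries. They do not say whether the replicates came from separate animals or cultures, so the p-values measure only the spread between these libraries, which may be technical.

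The barrier of the skin surface rests on stacked sheets of lipid between dead cornified cells, and ceramides are the main sphingolipid of those sheets. Ceramide building starts with serine palmitoyltransferase, passes through ceramide synthases that attach a fatty acid, and draws on elongases that lengthen that fatty acid. The ultra-long acylceramides so made are glucosylated, packed into lamellar granules by a lipid transporter, oxidised on their linoleate by lipoxygenases and joined to the proteins of the cornified envelope. The lining of the uterus is normally a simple columnar epithelium, which does not cornify.

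The stretches just before the start sites of 4 of the 9 genes are printed here, because these members stand for the patterns described below. Sptssb was among the members with no read in WT libraries, Alox12b reached the highest level in KO libraries among the 8 that were higher there, and Ugcg was the member that was lower. Cers3 and Ugcg were also the members whose window held GGTCA, the repeat unit of the estrogen response element, and Alox12b was the one with a CCACACCC box of the type bound by KLF4. Each run holds the 250 bases before the start, 5′ to 3′ on the gene's strand, from RefSeq on build GRCm38.p6, which is older than the build GRCm39 named for the counts. Capitals mark GGTCA in Cers3 and Ugcg and CCACACCC in Alox12b. The positions are chr3:69859895-69860144 on the minus strand, chr11:69156822-69157071 on the plus strand, chr7:66743254-66743503 on the plus strand and chr4:59189300-59189549 on the plus strand.
Sptssb: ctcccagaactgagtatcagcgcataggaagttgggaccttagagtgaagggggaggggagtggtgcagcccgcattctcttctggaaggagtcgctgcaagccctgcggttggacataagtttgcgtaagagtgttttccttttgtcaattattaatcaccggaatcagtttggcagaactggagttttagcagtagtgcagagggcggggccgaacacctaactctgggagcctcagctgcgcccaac
Alox12b: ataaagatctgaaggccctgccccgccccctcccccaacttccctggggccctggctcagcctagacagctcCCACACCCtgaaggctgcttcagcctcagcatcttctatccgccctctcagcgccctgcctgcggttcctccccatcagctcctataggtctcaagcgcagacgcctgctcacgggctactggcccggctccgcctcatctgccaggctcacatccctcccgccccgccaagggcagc
Cers3: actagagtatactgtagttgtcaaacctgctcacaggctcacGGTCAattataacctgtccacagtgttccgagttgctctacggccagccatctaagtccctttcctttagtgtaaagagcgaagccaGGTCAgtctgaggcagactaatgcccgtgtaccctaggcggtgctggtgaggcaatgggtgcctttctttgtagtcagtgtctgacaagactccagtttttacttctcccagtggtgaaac
Ugcg: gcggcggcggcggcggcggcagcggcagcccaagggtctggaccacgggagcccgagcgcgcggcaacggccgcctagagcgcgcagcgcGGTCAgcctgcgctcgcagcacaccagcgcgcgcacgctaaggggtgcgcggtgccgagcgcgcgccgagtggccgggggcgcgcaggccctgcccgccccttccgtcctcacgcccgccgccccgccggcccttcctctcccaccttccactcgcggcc

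Of the 9 members, 8 had an entry in the RefSeq promoter table, and Aloxe3 had none. Motifs were searched on both strands in windows of 300 bases, which add the 50 bases after the start, and the same search was run on all 32851 windows of the table. GGTCA lay 160 bases before the start of Ugcg and 208 and 121 bases before that of Cers3, thus in 2 of 8 members, while 40.5% of all windows held it. CCACACCC lay 178 bases before the start of Alox12b, in 1 of 8 members and 3.56% of all windows. No member window held the Grainyhead motif AACCGGTT (0.146% of all windows) or its looser form AACNGGTT (2.09%), which contains it. None held the AP-1 motif TGANTCA (7.81%), the TATA box TATAAA (13.6%), the core bound by the p53 family (0.712%) or the full estrogen response element (0.07%), an inverted repeat of GGTCA. These are matches of letters and not sites of binding. In base composition the windows fell into 2 sets, with 50.7% to 52.7% G and C in Alox12e, Cers3, Abca12 and Sptssb and 66.0% to 81.3% in Alox12b, Elovl4, Elovl7 and Ugcg, against a median of 52.7% over the table.

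Levels are given in CPM, the reads of a gene per 1e+06 counted reads after scaling by TMM, a method that evens out libraries of different composition. Differences are log2 fold changes with a standard error (SE) from edgeR's quasi-likelihood test, and a gene was called at a Benjamini-Hochberg adjusted p under 0.05 over the 16465 genes tested. The libraries held 75654191 to 108665407 counted reads. Esr1 averaged 307.7 ± 50.2 CPM (SD, n = 3) in WT without estrogen and 318 ± 33.5 CPM in WT with estrogen, but 16.4 ± 0.402 and 19.7 ± 0.51 CPM in the KO groups, so that all 6 KO libraries lay below all 6 WT libraries, as labelled. Epithelial markers were present throughout. Cdh1, the adhesion molecule E-cadherin, averaged 658.6 to 740.0 CPM in the 4 groups. Pax8, a factor of the uterine epithelium, averaged 68.9 to 236.2 CPM and was lower in KO, 3.43-fold without and 2.98-fold with estrogen. Hoxa10 and Hoxa11, factors of uterine identity that are most active in the stroma, had 8 and 10 reads over all 12 libraries. The 10 stromal markers summed to at most 11.2 CPM in any library. Replicates of a group differed by more than counting noise in all 12 pairs.

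All 9 members were called between the genotypes, both without and with estrogen. Sptssb, Cers3, Elovl4, Elovl7, Abca12, Alox12b, Aloxe3 and Alox12e were higher in KO organoids in both treatments, and Ugcg was lower in both. This is to be read against a background in which most genes moved: 71.7% of the 16465 genes tested were called without estrogen, 70.8% with estrogen, and 64.9% in both with the same sign (34.1% higher and 30.8% lower). By direction, 37.7% of genes were higher and 34.0% lower in KO without estrogen, and 36.7% higher and 34.1% lower with estrogen. The 6 KO libraries did not overlap the 6 WT libraries for any of the 9 members, as was so for 65.0% of genes tested (34.0% with KO higher and 31.0% with KO lower). A pattern of no read in any WT library with a call higher in KO in both treatments was held by 2.31% of genes tested, and by Sptssb and Abca12 among the members. The filter asks for about 0.107 CPM in at least 3 libraries, and 5 members (Sptssb, Abca12, Alox12b, Alox12e and Elovl4) reached it through the KO libraries alone. A difference was thus built into the filter for those 5, and the adjusted p-values given for them below are no independent support. Cers3, Aloxe3, Elovl7 and Ugcg reached that level in all 6 WT libraries too.

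**Figure D1:**
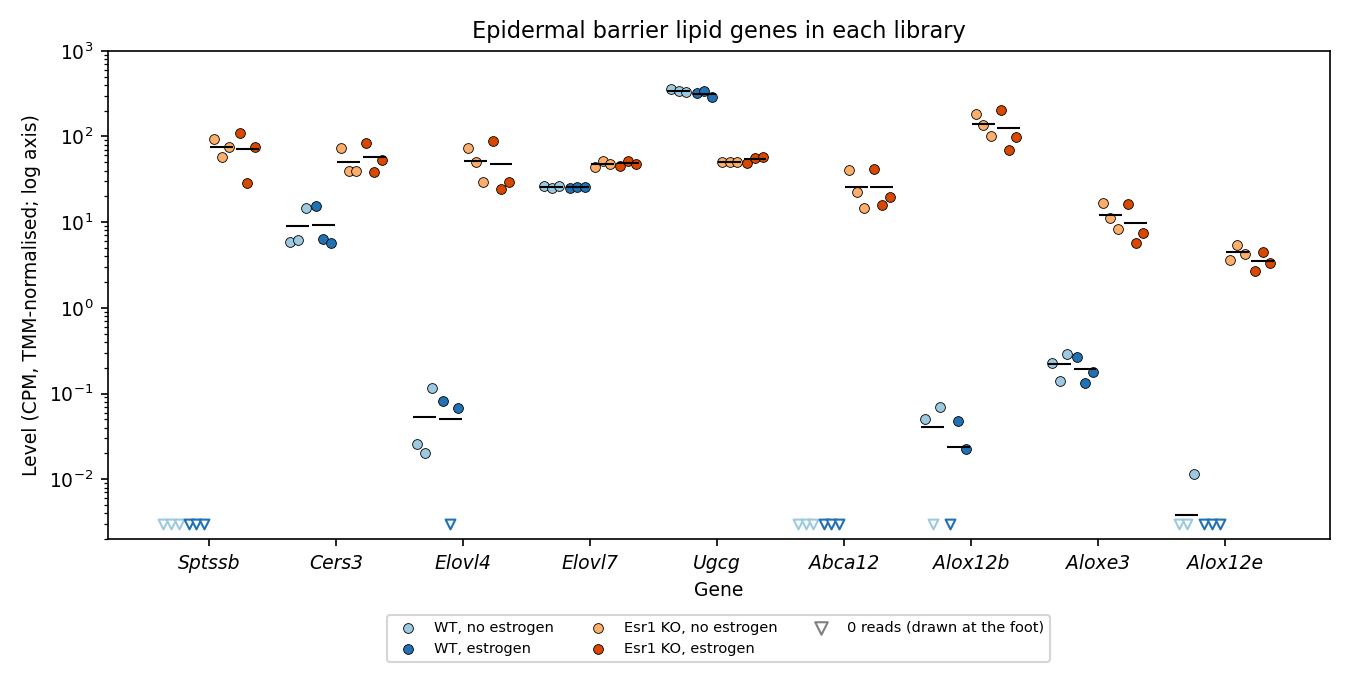
Level of each of the 9 genes in each library, in CPM on a log axis, with 1 point per library, a bar at the mean of each group of 3 and open triangles at the foot for libraries with 0 reads. The KO points sit above the WT points for 8 genes and below them for Ugcg, and the points with and without estrogen lie side by side.

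Sptssb and Cers3 stand at the steps that form the ceramide backbone. Sptssb encodes a small subunit of serine palmitoyltransferase that lets the enzyme take a longer acyl-CoA. It had 0 reads in all 6 WT libraries, a total of 0 reads that allows up to 0.0114 CPM without and 0.0112 CPM with estrogen over each group of 3 (3 reads; counting error only). In KO libraries it stood at 93.6, 57.0 and 75.5 CPM without estrogen and at 109, 28.9 and 74.4 CPM with estrogen. Every KO library was thus far above every WT library, although the KO libraries with estrogen spread 3.76-fold from lowest to highest. The difference was at least 6626-fold without estrogen (edgeR adjusted p = 1.70e-05) and at least 6323-fold with estrogen (edgeR adjusted p = 1.86e-05). In bulk RNA such a difference can come from a change in the number of cells of a type or in the RNA per cell. These cannot be told apart here, for a rise as for a fall.

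Cers3 encodes the ceramide synthase that attaches very long and ultra-long acyl chains. Its WT libraries read 5.94, 6.19 and 14.7 CPM without estrogen and 15.6, 6.32 and 5.72 CPM with estrogen. The KO libraries read 73.3, 39.2 and 39.8 CPM and 83.2, 38.4 and 53.3 CPM. In each WT group 1 library stood well above the other 2, yet the highest WT library stayed below the lowest KO library. Cers3 was 5.68-fold higher in KO without estrogen (log2 2.51 ± 0.51 SE; edgeR adjusted p = 0.00105) and 6.33-fold higher with estrogen (log2 2.66 ± 0.51 SE; edgeR adjusted p = 7.43e-04), or 9.68-fold higher with estrogen when the first WT library was left out. Unlike Sptssb, it was thus well measured in both genotypes.

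Elovl4 and Elovl7 lengthen fatty acids. Elovl4 makes the ultra-long chains of acylceramides and was nearly silent in WT, at 0.0255, 0.0202 and 0.116 CPM without and 0.0823, 0 and 0.0676 CPM with estrogen, or 14 reads per group. It stood at 73.7, 50.0 and 29.6 CPM in KO without estrogen and at 89.0, 24.7 and 29.3 CPM with estrogen. The groups did not overlap, and the ratio of means was 949 without and 954 with estrogen (log2 9.87 ± 0.85 and 9.81 ± 0.85 SE; edgeR adjusted p = 1.68e-06 and 1.92e-06). The ratio was 2235 without the third WT library without estrogen, and 540.4 without the first KO library with estrogen. Elovl7, which extends saturated long-chain fatty acids, behaved otherwise. It was read at 26.1, 24.9 and 26.7 CPM and at 25.0, 25.7 and 25.4 CPM in the WT groups, and at 43.9, 51.7 and 47.7 CPM and 45.6, 52.2 and 47.5 CPM in the KO groups. Its rise was small and even, 1.85-fold without and 1.91-fold with estrogen (log2 0.88 ± 0.075 and 0.93 ± 0.075 SE; edgeR adjusted p = 1.28e-06 and 9.32e-07).

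Ugcg encodes glucosylceramide synthase, which adds glucose to ceramide and so makes the form carried by lamellar granules. It was the most abundant member in WT, with 356, 337 and 329 CPM without and 322, 336 and 290.0 CPM with estrogen. The KO libraries held 50.4, 49.8 and 49.9 CPM and 49.1, 56.1 and 57.7 CPM. All KO libraries lay below all WT libraries, and within the KO group without estrogen the 3 values were close together. Ugcg fell to 14.7% of its WT level without estrogen (log2 -2.77 ± 0.083 SE; edgeR adjusted p = 1.31e-09) and to 17.2% with estrogen (log2 -2.54 ± 0.082 SE; edgeR adjusted p = 2.49e-09).

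Abca12, the transporter that loads glucosylceramides into lamellar granules, had 0 reads in all 6 WT libraries, like Sptssb. Its KO libraries read 40.2, 22.6 and 14.5 CPM without estrogen and 41.6, 15.9 and 19.7 CPM with estrogen. Against the limit that 0 reads allow, Abca12 was at least 2264-fold higher without estrogen (edgeR adjusted p = 3.28e-05) and at least 2307-fold higher with estrogen (edgeR adjusted p = 3.41e-05). In both treatments the first KO library held more than the other 2.

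Alox12b and Aloxe3 encode the lipoxygenases that act in turn on the linoleate of acylceramides. Alox12b had 0.051, 0 and 0.0695 CPM in WT without and 0, 0.0484 and 0.0225 CPM with estrogen, in all 10 and 6 reads. In KO it reached 184, 134 and 100.4 CPM and 204, 69.8 and 99.6 CPM, so it changed from near absence to the highest CPM among the members that rose. The ratio of means was 3473 without and 5263 with estrogen (log2 11.79 ± 0.70 and 12.36 ± 0.73 SE; edgeR adjusted p = 1.02e-07 and 1.17e-07). These ratios rest on the few WT reads just given: they were 5473 without the third WT library without estrogen and 11045 without the second WT library with estrogen.

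Aloxe3, the partner enzyme that turns the hydroperoxide into an epoxy alcohol, was low but present in every WT library. Its values were 0.229, 0.142 and 0.290 CPM without and 0.267, 0.133 and 0.180 CPM with estrogen. In KO they were 16.8, 11.2 and 8.23 CPM and 16.1, 5.73 and 7.49 CPM, with no overlap. Aloxe3 was 54.9-fold higher without estrogen and 50.6-fold higher with estrogen (log2 5.78 ± 0.51 and 5.64 ± 0.51 SE; edgeR adjusted p = 1.83e-06 and 2.44e-06). Alox12e, an epidermal-type lipoxygenase of the mouse, had a single read in the third WT library without estrogen and none in the other 5 WT libraries. Its KO levels were lower than those of the other members, at 3.63, 5.40 and 4.29 CPM and 2.68, 4.54 and 3.31 CPM. Without estrogen the ratio was 1175, with a counting interval (exact, 95%) from 210.4 to 46437 (edgeR adjusted p = 4.14e-07). With estrogen Alox12e was at least 314-fold higher (edgeR adjusted p = 5.05e-07).

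Set against one another, the 9 members differed in kind. Elovl7 and Ugcg were expressed in both genotypes and moved by 1.85- to 6.81-fold with little spread. Cers3 was expressed in both and rose 5.68- to 6.33-fold with wide spread, and Aloxe3 rose from traces. The other 5 went from none or near none to a clear level. In all, 3 of the 9 overlap another gene in the RefSeq table of build GRCm38: Sptssb and Abca12 each overlap a long noncoding RNA (Gm52608 and Gm39659), and Elovl7 a pair of pseudogenes (Gm32376 and Gm30747). Since counting ignored the strand and left out reads shared by 2 genes, the levels of these 3 are less certain. The 3 lipoxygenases lie on chromosome 11, with Alox12b between Aloxe3 and Alox8, and Alox12e between Alox12 and Alox15. Alox12, Alox15 and Alox8, the neighbours, were also called higher in KO in both treatments. So was Alox5, a lipoxygenase gene on chromosome 6, and so were 34.1% of all genes tested.

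The members' levels followed the KO libraries in 2 ways. Sptssb, Cers3, Elovl4, Abca12, Alox12b and Aloxe3 were highest in the first KO library of each treatment, at 1.24 to 1.56 times the group mean without estrogen and 1.43 to 1.87 times with estrogen. Alox12e was highest in the second KO library and lowest in the first, in both treatments, from 0.764 to 1.29 times its group mean. Elovl7 and Ugcg varied little, Elovl7 between 0.919 and 1.08 and Ugcg between 0.905 and 1.06 times the group mean. Elovl7 had the order of Alox12e, but over that narrow range. Same-numbered KO libraries deviated together over the genes tested (r = 0.409 to 0.568), so the treatments do not show these orders independently.

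Markers of other cell types moved with these patterns. The squamous suprabasal list, cells that stratify and cornify, had 14 of 15 measured genes called higher in KO in both treatments, among them Krt13, a keratin of stratified epithelia, and Krtdap, a keratinocyte differentiation protein. Its summed level was 349 to 442 CPM in WT, 4118 to 6820 CPM in KO without estrogen and 2787 to 7830 CPM in KO with estrogen, and Calm4 and Dsc1 had no read in WT. Most of the WT sum was Ppl (292 to 387 CPM), and the other 14 genes summed to 42.6 to 66.5 CPM in WT and 2264 to 7000.4 CPM in KO. The basal list had 8 of 9 genes higher, with sums of 186 to 241 CPM in WT and 4989 to 12010 CPM in KO. Itgb4, the gene not called in both treatments, made up nearly all of the WT sum (182 to 239 CPM), and the other 8 summed to 1.96 to 3.97 CPM in WT and 4775 to 11673 CPM in KO; Krt14, a basal keratin, had 0 reads in WT with estrogen. Both sums were highest in the first KO library of each treatment, where the 6 members were highest. Single genes of the squamous list differed from that order. Krt4, not called in both treatments, was highest in the third KO library, at 9.66 CPM without and 16.28 CPM with estrogen. The multiciliated list had 10 of 10 genes higher, including Foxj1, the ciliary master regulator, and its sum went from 1.80 to 3.61 CPM in WT to 817 to 1490 CPM in KO. That sum was highest in the second KO library and lowest in the first, the order shown by Alox12e. Not every gene of the list shared that order. Mcidas was highest in the first KO library, with 26.76, 25.49 and 20.45 CPM without and 23.13, 19.03 and 15.46 CPM with estrogen. The part of these cell types in the members' differences was not tested. Krtdap, Calm4, Dsc1, Krt14, Krt15, Lgals7, Foxj1, Dynlrb2, Dnah5 and Mcidas, among others, reached the filter through the KO libraries alone. A call higher in KO was thus built into the filter for them, and the squamous, basal and multiciliated counts were partly fixed by it. By comparison, 34.1% of all genes tested were called higher in both treatments. Markers of sebaceous and fat cells, which also handle lipids, summed to 2.64 to 5.57 CPM over all libraries with 0 reads of Awat1 and 5 of Plin1. Of the 3 tested genes on that list, Awat2, a wax synthase of sebaceous cells, was higher in KO (3.12-fold without and 3.21-fold with estrogen), Fabp4, a fatty acid carrier of fat cells, was lower (32.2-fold and 39.3-fold), and Scd3 was not called in both treatments. Single genes of other lists also moved at low levels. Without estrogen Vim, of the stromal list, was 55.2-fold higher at 6.73 CPM in KO, and the immune genes Cd74 and Itgam were 179-fold and 19.4-fold higher at 17.8 and 2.58 CPM. Ptprc and Csf1r, also immune genes, averaged 6.41 and 31.3 CPM in WT and 0 and 0.309 CPM in KO without estrogen. Of the endothelial genes tested, Cdh5 was 87.5-fold lower and Pecam1 25.3-fold higher, both at or below 2.02 CPM on average in these groups. Over all libraries the immune list summed to 20.9 to 53.5 CPM and the endothelial list to at most 2.86 CPM. Of the 12 uterine epithelium markers, 10 were tested, 1 rose (Foxa2) and 5 fell in both treatments.

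**Figure D2:**
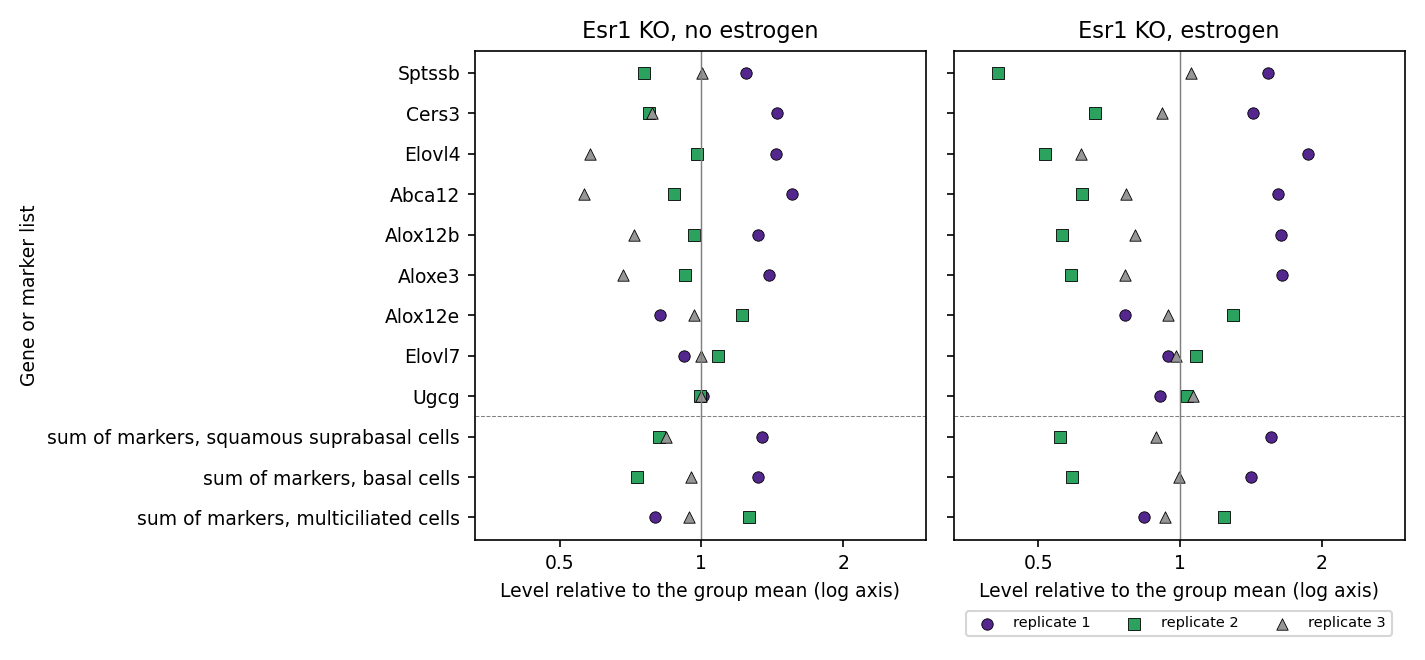
Level of each gene, and the summed level of 3 marker lists, in each KO library divided by the mean of its group (log axis), without estrogen on the left and with estrogen on the right. Replicate 1 lies to the right for Sptssb, Cers3, Elovl4, Abca12, Alox12b, Aloxe3 and the squamous and basal sums, and replicate 2 for Alox12e and the multiciliated sum; Elovl7 and Ugcg stay close to 1.

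Some members kept a steadier ratio to each other than their levels did. Per exon length, Alox12b stood at 13.5 to 16.5 times Aloxe3 over the 6 KO libraries, a spread of 1.22-fold, while Alox12b itself spread from 69.8 to 204 CPM. Its ratio to Elovl4 ran from 2.83 to 4.19 and that to Abca12 from 16.5 to 26.0. Sptssb followed its sister subunit Sptssa less closely, at 0.405 to 1.06 times its level per length. These pairs were chosen after their values were seen.

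Within their enzyme families, Sptssb, Cers3, Elovl4 and Alox12b held a larger share of the transcripts in KO than in WT libraries. The families were assembled after values were seen, levels were divided by exon length, and the shares carry no test. Cers1, Cers2, Elovl1 and Elovl3 overlap protein-coding genes, so their levels, and the shares within their families, are less certain. Sptssb made up 0% of the small subunits of serine palmitoyltransferase in WT but 45.8 ± 3.60% (SD, n = 3) in KO without and 41.5 ± 11.5% with estrogen, beside Sptssa, which itself was 3.00-fold and 2.81-fold higher in KO. The share of Cers3 among the 6 ceramide synthases went from 1.67 ± 0.98% to 19.0 ± 6.57% without and from 1.68 ± 1.06% to 20.5 ± 7.12% with estrogen. Cers2, which makes very-long-chain ceramides in most tissues, went from 78.4 ± 1.09% to 51.5 ± 4.48% without estrogen, and the whole family's level from 165.9 ± 4.59 to 81.3 ± 3.16 CPM per kilobase. The larger share of Cers3 thus came with a smaller family total.

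Among the elongases, Elovl4 went from 0.0148 ± 0.0151% of the family to 12.1 ± 4.27% without estrogen and from 0.0134 ± 0.0117% to 10.3 ± 6.36% with estrogen. Elovl7 went from 5.24 ± 0.33% to 8.69 ± 1.26% without estrogen. Elovl1 and Elovl5, the elongases of widest use, still led in KO with 38.4 ± 2.42% and 33.8 ± 4.88% without estrogen. The lipoxygenases differed between genotypes both in sum and in leading gene. Their summed level was 0.828 ± 0.218 CPM per kilobase in WT and 76.8 ± 20.5 in KO without estrogen; Alox12 led in WT with 76.7 ± 2.53%, and Alox12b in KO with 74.2 ± 2.79%. Aloxe3, though 54.9-fold higher, made up 8.68 ± 0.807% of the WT sum and 5.12 ± 0.488% of that larger KO sum, and with estrogen 8.15 ± 4.08% and 4.61 ± 0.295%. For Ugcg, level and share moved in opposite directions. The family taken here was Ugcg, Sgms1, Sgms2 and Ugt8a, not every enzyme that puts a head group on ceramide. Ugcg fell, yet its share of that family was 11.8 ± 0.504% in WT and 20.4 ± 1.63% in KO without estrogen. With estrogen the shares were 12.6 ± 0.619% and 16.3 ± 1.05%. Sgms2, a sphingomyelin synthase, went from 85.2 ± 0.812% to 50.7 ± 4.72% of that family without estrogen and from 84.1 ± 1.25% to 62.0 ± 3.19% with estrogen. The family's sum went from 721 ± 48.0 to 61.5 ± 4.91 CPM per kilobase without estrogen and from 626 ± 75.8 to 83.2 ± 7.67 with estrogen.

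**Figure D3:**
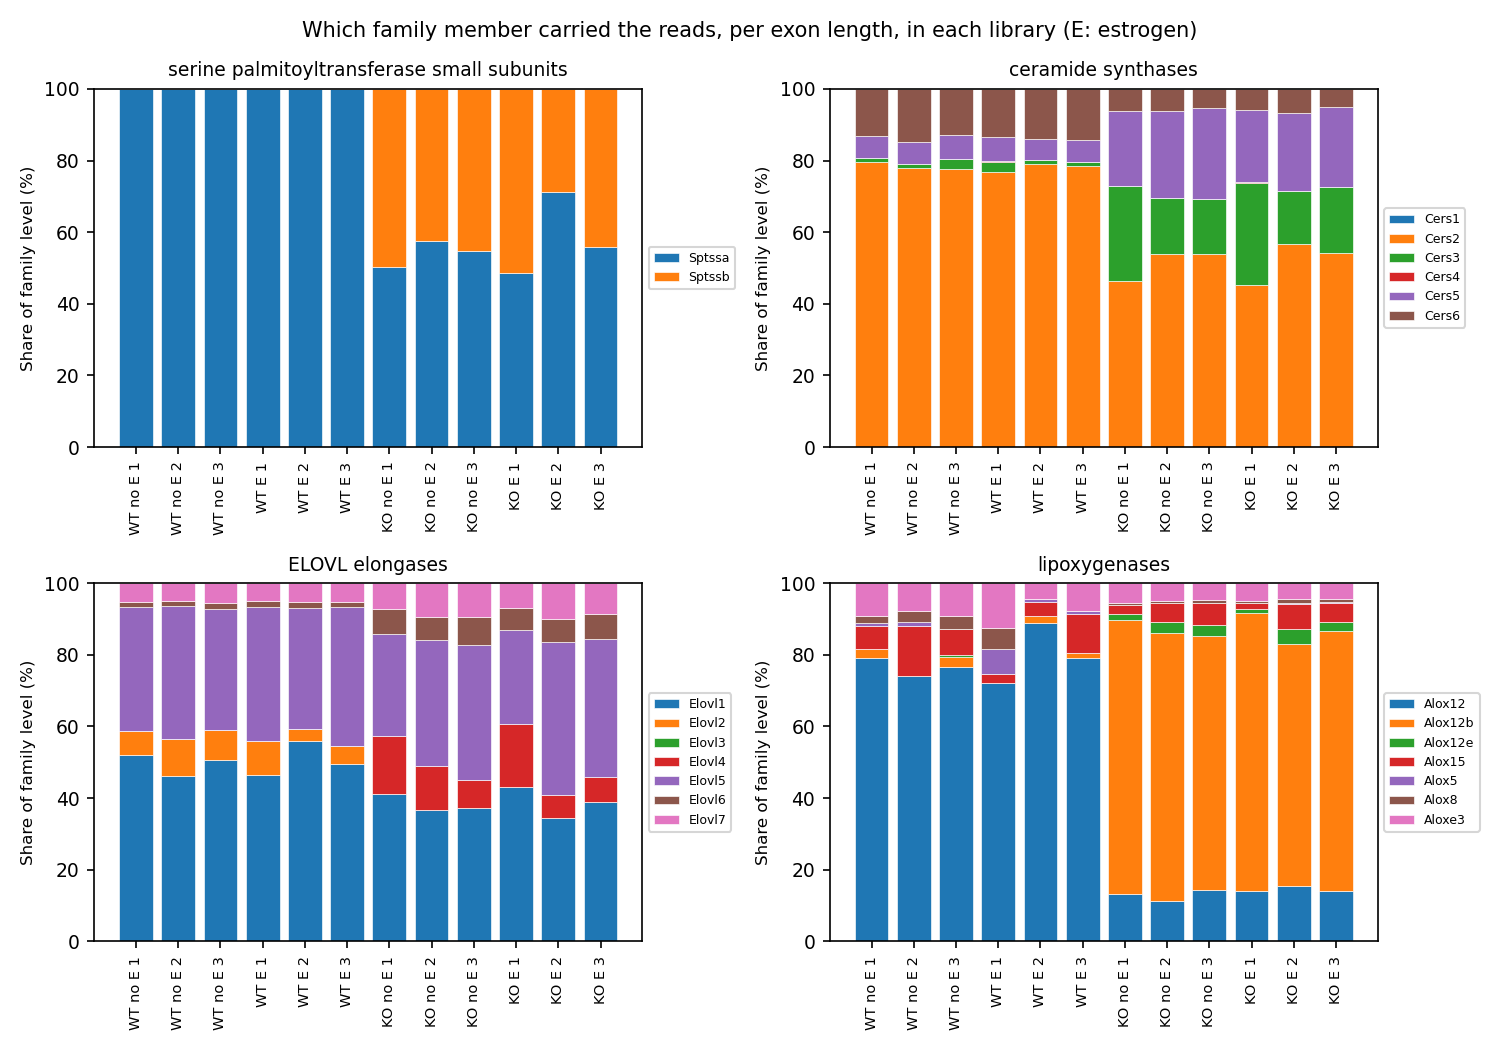
Share of each gene in the summed level of its enzyme family, per exon length, in each of the 12 libraries (stacked bars, percent). Sptssb, Cers3, Elovl4 and Alox12b are visible bands in the 6 KO libraries and are absent or thin in the 6 WT libraries.

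The rest of the pathway was examined through lists that did not include the members. Of 62 other lipid pathway genes tested, 25 were higher in KO in both treatments, 19 lower and 18 not called in both, and the median log2 difference was 0.06 without and 0.13 with estrogen, close to the 0.04 and 0.02 of all genes tested. Over all genes tested 34.1% were higher and 30.8% lower in both, and no test compared these lists with all genes or with each other. Sptlc3, Cers4, Cyp4f39, Pnpla1, Sdr9c7, Ephx3 and Acer1, described below, reached the filter through the KO libraries alone, so a rise was built in for them. Among 14 other genes of ceramide synthesis, 5 rose and 6 fell; with library size alone 5 rose and 4 fell, and 4 rose and 4 fell without both KO libraries numbered 1 or without both numbered 2. Sptlc3, a serine palmitoyltransferase subunit of skin, had 0 reads in WT and at least 69.4-fold more in KO without estrogen, at 0.790 ± 0.301 CPM (SD, n = 3). Cers4 was 10.9-fold higher without estrogen at 0.524 ± 0.0645 CPM, while Cers6 and Cers2 were 4.72-fold and 3.12-fold lower. The desaturase Degs1 did not pass the test, with 103.2 ± 15.4 CPM in WT and 94.7 ± 1.82 CPM in KO without estrogen.

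In fatty acid elongation, 5 of 10 other genes rose and 1 fell. Elovl6, which extends palmitate, was 4.96-fold higher without estrogen (log2 2.31 ± 0.14 SE; edgeR adjusted p = 8.29e-08). Elovl2, which extends polyunsaturated fatty acids, fell from 41.4 ± 9.70 CPM to 0.0240 ± 0.0416 CPM (SD, n = 3). Elovl1 and Elovl5 did not pass the test, at 119 and 120.5 CPM in WT and 103 and 128 CPM in KO without estrogen. Of 9 genes that make acylceramide or take up lipid, 4 rose and 2 fell. Cyp4f39, the omega-hydroxylase of ultra-long fatty acids, went from 0.0279 ± 0.0306 to 14.2 ± 5.45 CPM without estrogen, and Pnpla1, which links linoleate to the hydroxylated chain, from 0.0881 ± 0.0487 to 5.88 ± 3.25 CPM. Dgat2, a triglyceride synthase, was 18.4-fold higher, and the fatty acid hydroxylase Fa2h 8.62-fold higher.

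All calls in both treatments among the lipoxygenase pathway genes were in 1 direction. Of the 10 other genes on that list, 8 rose in both treatments and none fell. The median log2 difference was 3.95 without and 4.34 with estrogen. Sdr9c7, Ephx3, Alox8 and Alox5 of that list reached the filter through the KO libraries alone, so a rise was built in for them. Among all genes tested, 34.1% were higher in both treatments. Sdr9c7, the dehydrogenase that oxidises the epoxy alcohol of the acylceramide, went from 0.0562 ± 0.0417 to 33.3 ± 10.8 CPM (SD, n = 3) without estrogen. Ephx3, an epoxide hydrolase of skin, went from 0.0237 ± 0.0257 to 5.63 ± 3.20 CPM. Tgm1, the transglutaminase of the cornified envelope, was 19.4-fold higher (log2 4.28 ± 0.47 SE; edgeR adjusted p = 1.13e-05). The genes not called in both treatments were Ephx1 and Ephx2, which passed the test without estrogen alone (edgeR adjusted p = 0.021 and 0.00461) and not with estrogen (edgeR adjusted p = 0.348 and 0.806); the interaction test called neither.

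Genes that convert or break down sphingolipids held more falls than rises, with 3 of 19 higher, 10 lower and a median log2 difference of -0.49 without and -0.40 with estrogen. Acer1, a ceramidase of the epidermis, had 0 reads in WT without estrogen and at least 105-fold more in KO, at 1.19 ± 0.674 CPM (SD, n = 3). Sgms2 fell from 3566 ± 266 to 182 ± 31.8 CPM without estrogen, 19.6-fold, and from 3056 ± 413 to 300.2 ± 43.2 CPM with estrogen, 10.2-fold; the interaction test did not call it (log2 0.95 ± 0.22 SE; edgeR adjusted p = 0.871). Sphk1, a sphingosine kinase, was 8.12-fold lower, and B4galt5, which builds lactosylceramide from the product of Ugcg, 5.10-fold lower. Ugcg and B4galt5, which act in succession, were both lower. With scaling by library size alone the split of this list was 5 higher and 8 lower. Among 15 transcription factors of the barrier, 9 rose and 1 fell in both treatments. Grhl3, a Grainyhead factor of barrier formation, went from 0.142 ± 0.130 to 29.6 ± 8.27 CPM without estrogen, and Trp63, the p63 factor of stratified epithelia, from 2.60 ± 0.345 to 107 ± 30.7 CPM; Trp63 also counts in the basal list. Zfp750 and the lipid-sensing receptor Pparg were 124-fold and 26.5-fold higher. Klf4, named after its values were seen as the 1 factor that fell, went from 137 to 76.1 CPM, and the receptor Nr1h2 did not pass the test, at 111 and 106 CPM.

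**Figure D4:**
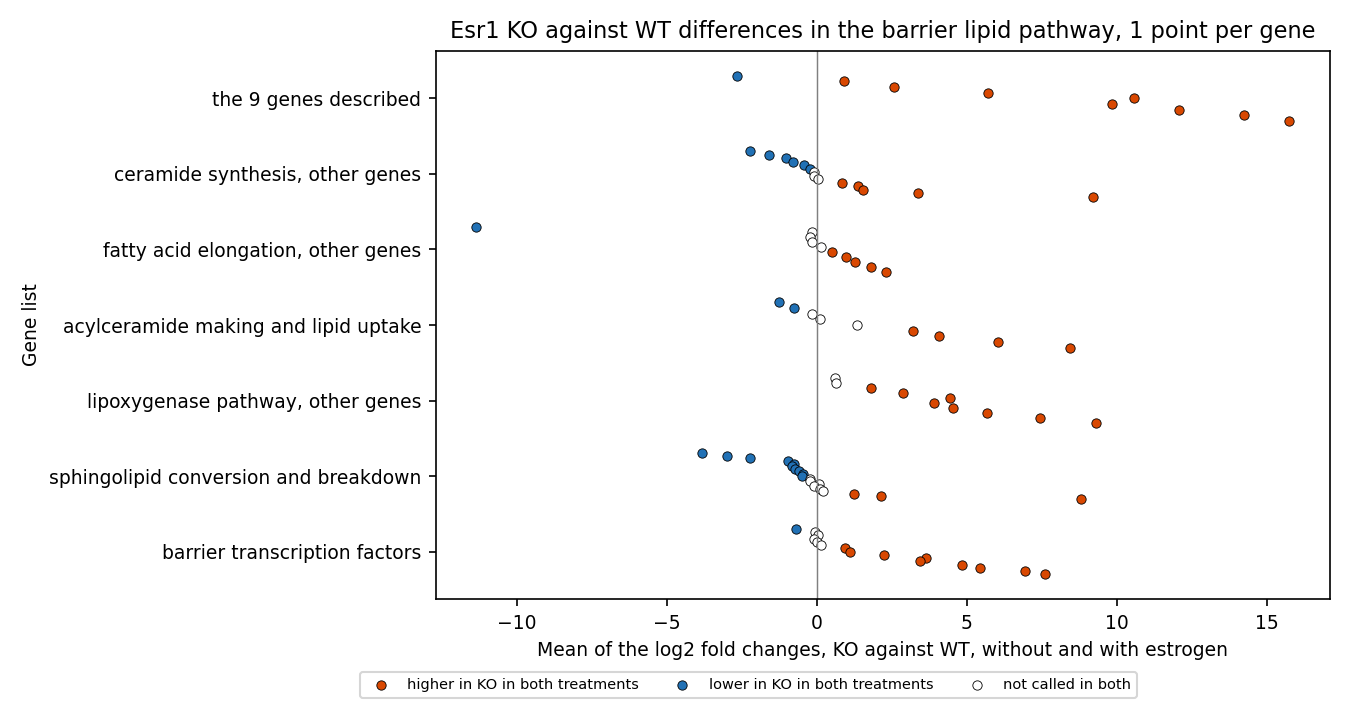
Fitted log2 fold change of KO against WT for each gene, as the mean of the values without and with estrogen, for the 9 genes and 6 lists of related genes; filled points were called in both treatments and open points were not. The lipoxygenase list holds 8 points to the right and none called to the left, whereas the sphingolipid conversion list holds 10 called points to the left; values of genes with no read in WT are set by the fit and are no bound.

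Estrogen gave no call for any member. In WT organoids 0 of 16465 genes were called by edgeR (0.0%), with 883 genes at an unadjusted p under 0.05 and no member among them; DESeq2 called 63 genes and no member. In KO organoids edgeR likewise called 0 genes (0.0%), with 411 at an unadjusted p under 0.05 and no member among them, while DESeq2 called 20 genes and no member. The submitters also describe both genotypes as unresponsive. The log2 differences between estrogen and none in KO were -0.09 ± 0.45 SE for Sptssb, 0.20 ± 0.48 for Cers3, -0.10 ± 0.49 for Elovl4, -0.16 ± 0.37 for Alox12b, -0.30 ± 0.39 for Aloxe3 and -0.34 ± 0.29 for Alox12e. With a replicate block within genotype, which uses the pairing of the KO libraries, the errors were smaller, and no member was called: the values were -0.26 ± 0.25 for Sptssb, -0.38 ± 0.21 for Aloxe3 and -0.35 ± 0.17 for Alox12e (edgeR adjusted p = 1.0 for each). Alox12e was lower with estrogen in all 3 KO pairs, with log2 differences of -0.44, -0.25 and -0.37. So were Aloxe3, at -0.06, -0.96 and -0.14, and the multiciliated sum, at -0.20, -0.30 and -0.30. All the other members had pairs of both signs. The share of all genes with the same sign in all 3 pairs was not counted, so no estrogen effect is drawn from these signs. Elovl7 and Ugcg were measured far more tightly, at 0.02 ± 0.074 and 0.12 ± 0.078 in KO and -0.03 ± 0.075 and -0.11 ± 0.077 in WT. No estimate exists for Sptssb and Abca12 in WT, where both treatments had 0 reads.

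The genotype difference was not shown to depend on estrogen for any member. The interaction test called 0 of 16465 genes (0.0%), with 726 genes at an unadjusted p under 0.05 and no member among them; DESeq2 called 25 genes and no member. Ugcg came nearest by unadjusted p, with an interaction of 0.23 ± 0.11 on the log2 scale (edgeR, unadjusted p = 0.0636, adjusted p = 0.974). Its level was 341 CPM in WT and 50.0 CPM in KO without estrogen, and 316 CPM in WT and 54.3 CPM in KO with estrogen.

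For each member up to 3 tested genes of similar pattern are given, from those with the smallest root mean square difference of log2 CPM over the 12 libraries, each profile centred on its own mean. Those of Sptssb were Klk12 (0.180), Slurp1 (0.233) and Mill1 (0.282), where Klk12 is a kallikrein protease and Slurp1 a secreted keratinocyte protein. Those of Abca12 were Ccdc3 (0.196), Gm94 (0.225) and Klk7 (0.228), the last a protease of the outer skin layer. Alox12b was nearest to Klk10 (0.542), Mill1 (0.595) and Lgi2 (0.603), and Elovl4 to Tmigd1 (0.386), Serpinb10 (0.579) and Mcidas (0.602). Aloxe3 was nearest to Trp63 (0.257), Trim47 (0.315) and Mst1 (0.320), and Cers3 to Gja1 (0.234), a connexin, Wnt4 (0.238) and Troap (0.241). The neighbours of Alox12e were Dnaaf6b (0.191), Abhd12b (0.228) and Cfap70 (0.242), where Dnaaf6b and Cfap70 belong to motile cilia. Elovl7 lay nearest to Pi4k2a (0.0589), Sox13 (0.0640) and Arl13b (0.0650), and Ugcg to Paqr5 (0.0910) and Manba (0.0977). Among the members themselves the closest pair was Sptssb and Alox12b (0.651), followed by Abca12 and Elovl4 (0.735). These distances are dominated by the difference between genotypes, and the libraries are the same 12 for every gene.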

How the data were processed

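The mRNA libraries of 12 organoid samples, in 4 groups of 3, were sequenced as read pairs. According to the headers of the deposited files, featureCounts 2.0.0 was run by the authors over RefSeq exons summed by gene symbol, each mate on its own, with strand ignored and with multi-mapping reads and reads on several genes left out. The submitters' processing notes list STAR 2.7.10b and build GRCm39, with featureCounts 2.0.3, Trim Galore 0.6.6 and FastQC 0.11.7. The deposited values are raw counts, with 75654191 to 108665407 per library.

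Genes passing filterByExpr (minimum count 10, minimum total 15) were tested with edgeR 4.0.16 in R 4.3.3 with robust quasi-likelihood fits, TMM scaling and 1 spread over all 4 groups, two-sided, with Benjamini-Hochberg adjustment over 16465 genes. The edgeR fit alone was tested on simulated counts, with far fewer and smaller differences between genotypes than were found here. Standard errors were derived from the F value. DESeq2 1.42.0, other filters and scaling, each library left out and replicate blocks were alternatives. A fold against a group with 0 reads is a lower bound set against 3 reads over the group; with 1 to 3 reads a ratio with an exact 95% counting interval is given, which covers counting error only. Promoters and gene overlaps came from RefSeq tables of build GRCm38, and exon lengths from GENCODE transcripts of that build, so lengths are approximate.

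The members and lists were chosen with earlier results of these data known. From each other list, the text names up to 4 genes called in both treatments with the largest mean log2 fold change and up to 2 of the others with the highest mean CPM, and for each member the 3 genes of most similar pattern, of which 1 is not reported here; Klf4 and genes given as family members or as lipoxygenase neighbours fall outside this rule. Same-numbered KO libraries deviated together from their group means (r = 0.568, 0.501 and 0.409 for numbers 1 to 3), so the numbers pair the KO libraries as judged from the data. Same-numbered WT libraries did not (r = -0.164, -0.157 and -0.39), and WT and KO libraries with one number had r between -0.00892 and 0.0531. WT libraries of different numbers did deviate together. Numbers 1, 2 and 3 without estrogen went with numbers 2, 3 and 1 with estrogen (r = 0.273, 0.46 and 0.396). The replicate blocks used the numbers as labelled and so did not follow these WT pairs.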

Additional observations from a re-analysis of the deposited data

How the results depend on the processing

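All 9 members kept their direction and their call between genotypes, without and with estrogen, under each alternative run: library size alone, DESeq2, no filter, at least 1 CPM in 3 libraries, only the groups compared, each library left out, a replicate block over all groups and, chosen after seeing the data, both KO libraries numbered 1 or both numbered 2 left out. These runs could hardly change the calls of Sptssb, Abca12, Alox12b, Alox12e and Elovl4, which reached the filter through the KO libraries alone. The check thus bears on Cers3, Aloxe3, Elovl7 and Ugcg. The highest adjusted p was 0.0063, for Cers3 without estrogen, whose log2 difference ranged from 2.15 to 3.06. Without estrogen the log2 difference ranged from 0.82 to 1.11 for Elovl7, -2.79 to -2.54 for Ugcg, 9.43 to 11.06 for Elovl4, 9.23 to 11.71 for Alox12e and 11.14 to 12.51 for Alox12b, and with estrogen from 8.99 to 10.36 for Elovl4 and 11.74 to 13.33 for Alox12b, so sizes that rest on few WT reads are loose. The 0 calls for estrogen over all genes were less stable. DESeq2 called 63 genes in WT, 20 in KO and 25 in the interaction. Leaving out 1 library gave 0 to 54 genes in WT (1 without the third library without estrogen, 54 without the first with estrogen), 0 to 4 in KO (4 without the third library without estrogen) and 0 to 6 in the interaction (6 without the first WT library with estrogen). The replicate block within genotype gave 7 genes in WT and 4 in the interaction. It followed the library numbers, which did not match the WT libraries that deviated together. Neither block changed the call of a member. No member was called in these, with a lowest adjusted p of 0.672 in WT, 0.868 in KO and 0.651 in the interaction, and the cause was not tested.

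Scaling by library size alone raised the median log2 difference of all genes by 0.23 without and 0.19 with estrogen, and the share of higher genes among those called in both treatments from 52.5% to 65.3%; no list gene called under both scalings turned direction. It also called 3 uterine epithelium markers higher in place of 1. Without division by exon length, 12 of the 32 shares of members, and 49 of the 104 shares of all family genes, moved by more than their SD; Ugcg then made up 16.1% and Sptssb 53.4% of their families in KO without estrogen. The interaction was not run with only the groups compared, since all groups enter it.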
